A study of Mus musculus with 28 samples.

Results

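CTLL2 cells exposed to B16F0 melanoma exosomes for 8 h were compared with untreated CTLL2 cells sampled at the same time, which takes 6 of the 28 RNA sequencing libraries of the series. The libraries were chosen by their titles: 3 from exosome-treated cells and 3 from untreated cells. CTLL2 is a mouse cytotoxic T-cell line that grows on interleukin-2, labelled with the strain C57BL/6, and B16F0 is a mouse melanoma line. All cells were grown for 24 h in complete medium and then given fresh medium. The treated cells received fresh B16F0 exosomes in PBS at a final 0.2 mg/ml, and the labels call the other group unstimulated without saying whether it received PBS. The series design calls the replicates biological. Replicate 1 of each group belongs to batch 1 and replicates 2 and 3 to batch 2. The question was how melanoma exosomes alter the transcriptome of cytotoxic T cells, here at the last time sampled.

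Exosomes are small membrane vesicles that cells release, and they carry protein and RNA of the cell that made them. Tumour exosomes can bind to T cells or be taken up by them. Among the signals that T cells receive through surface receptors is the NF-kB pathway, in which inhibitor proteins hold Rel family transcription factors in the cytoplasm until a kinase cascade releases them. The released factors switch on, among other genes, those of their own inhibitors. RNA sequencing of exposed cells counts RNA made by the T cells together with any RNA that vesicles brought along, and these cannot be told apart in these libraries.

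The 8 h libraries held between 14432230 and 18782680 reads assigned to genes, and values are given as normalized counts, the authors' read counts divided by a size factor per library. T cell identity transcripts summed to between 87419 and 91640 normalized counts in exosome libraries and to between 89686 and 109040 in untreated libraries. Both groups were therefore rich in the labelled cell type's transcripts. Untreated replicates 1 and 2 stood apart from the other 4 libraries in 2 measures. First, they held skeletal muscle transcripts: Acta1, skeletal muscle actin, was at 2.09, 1.84 and 1.79 normalized counts in the exosome libraries and at 202, 206 and 3.57 in untreated replicates 1, 2 and 3. The 18 muscle transcripts summed to between 1025 and 1143 normalized counts in exosome libraries and to 3326, 3048 and 1100 in untreated libraries, and none of the 18 was at 0 in untreated replicates 1 and 2. Tnnt3, Tnni2, Pvalb and Myh1 had at most 0.895 normalized counts in each exosome library and were at 0 in untreated replicate 3. Acta1 reached 50 normalized counts in 8 of the 28 libraries, 2 of them at 8 h. Second, short transcripts were high and long ones low in these 2 libraries. Genes in the shortest quintile by transcript length deviated from the mean of the 6 libraries by a median of -0.18, -0.10 and -0.06 (log2) in the exosome libraries, against 0.27, 0.12 and -0.06 in the untreated libraries. In the longest quintile the medians were 0.10, 0.14 and 0.07 in the exosome libraries, against -0.32, -0.10 and 0.11. Exosome replicate 3 differed in another way, with 22.0% of genes in the table at 0, against 28.1% to 36.4% in the other 8 h libraries.

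**Figure D1:**
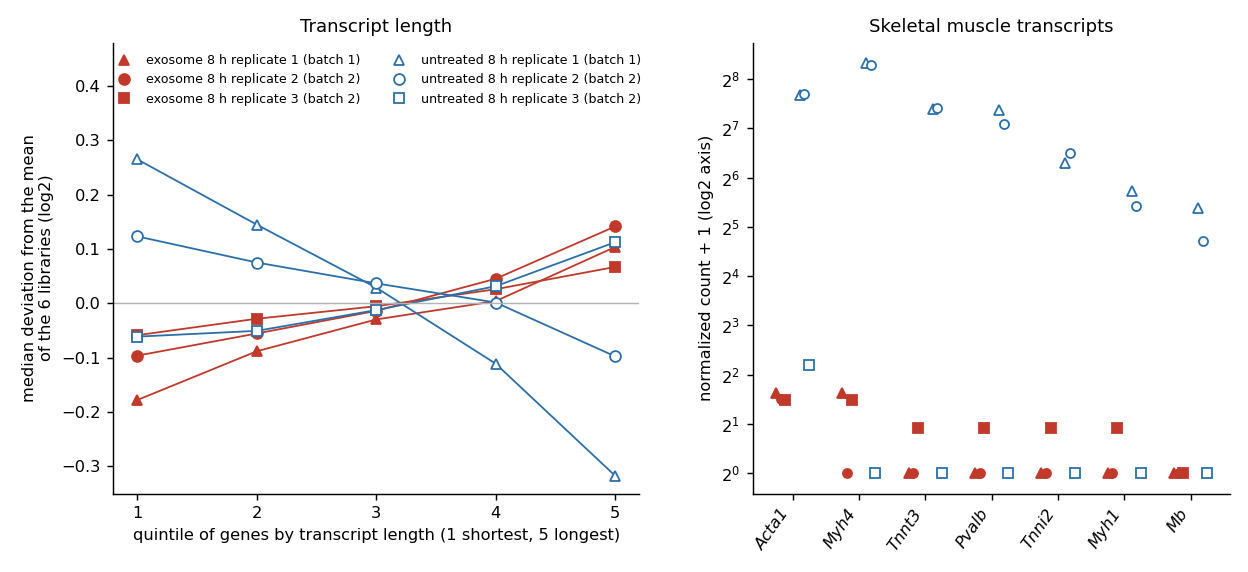
Left, median deviation of genes from the mean of the 6 libraries (log2) by quintile of transcript length, 1 line per library; right, normalized count + 1 (log2 axis) of 7 skeletal muscle transcripts, 1 point per library, exosome filled and untreated open. Untreated replicates 1 and 2 slope downward with length and carry the muscle transcripts, with Acta1 at 202 and 206 normalized counts, while untreated replicate 3 lies with the exosome libraries.

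In exosome-treated cells 58 genes were higher and 9 lower than in untreated cells at 8 h, by limma with Benjamini-Hochberg adjusted p below 0.05 over 14828 genes. These 67 genes are 0.452% of the genes tested, with 0.391% called higher and 0.0607% called lower. At an unadjusted p below 0.05, 2024 genes (13.6%) were higher and 1944 (13.1%) lower. The 58 genes fell into 36 that averaged below 10 normalized counts in untreated cells, 4 between 10 and 50, and 18 at 50 or more. The 3 exosome libraries lay above all 3 untreated libraries, or below all of them, for 49 of the 58 and 7 of the 9. Of all genes tested, 5.37% lay above, 7.79% below and 13.2% either way. The 67 genes were called on these same libraries, so their lack of overlap is no independent support. A batch term over the 8 h libraries alone left 1 gene called, with 2606 at an unadjusted p below 0.05. A block on replicate number over the same libraries left 0 genes called, with 1912 at that level. Fits without untreated replicates 1 and 2, given below, rest on untreated replicate 3 alone at 8 h, which limits their power. The count changed with the untreated library left out. It was 38 genes without untreated replicate 1, 25 without untreated replicate 2 and 3903 (26.3%) without untreated replicate 3.

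Of the 58 genes called higher, 36 averaged below 10 normalized counts in untreated cells at 8 h, and many of these were nearly absent there. Tyrp1, a melanosomal enzyme of pigment synthesis (GRCm38, chr4:80834123-80851719), was at 18.8, 48.7 and 40.3 normalized counts in exosome-treated cells and was at 0 in all 3 untreated libraries. The groups did not overlap, and with 116 reads in exosome libraries against 0 in untreated libraries Tyrp1 was at least 42.4-fold higher, with 3 reads over the untreated group as the floor. Its log2 fold change was 5.10 ± 0.45 (limma standard error, adjusted p = 4.355e-07). Such floors are ratios to 3 assumed reads, and they leave out the spread between libraries and any duplicate reads.

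Further transcripts of the pigment cell lineage were higher in exosome-treated cells. Dct, dopachrome tautomerase, had 23.0, 19.3 and 20.6 normalized counts in exosome libraries and 3.60, 4.04 and 1.78 in untreated libraries, a log2 fold change of 2.45 ± 0.40 (limma adjusted p = 0.00219). Mitf, the transcription factor that governs melanocyte development, had 17.8, 3.68 and 11.6 normalized counts against 0.900, 0 and 0. Trpm1, a melanocyte cation channel, had 5.23, 12.9 and 10.7 against 0, 0.809 and 0. Neither gene's groups overlapped, though the lowest exosome library of each lay close to the floor of 3 reads. Of the 20 melanocyte and melanoma transcripts listed, 10 passed the filter on low values, and these 4 were called higher and 0 lower, where 0.391% of all genes tested were called higher. All 4 passed that filter only through exosome libraries, since none reached 10 normalized counts in any of the 16 untreated libraries of the series, so their count is no support for a change in the list. The other 6 members passed it on untreated libraries alone, and 0 of them were called. Pmel, which encodes a structural melanosome protein, had 11.5, 12.9 and 13.4 normalized counts in exosome libraries and 9.0, 4.04 and 13.4 in untreated libraries. Its groups overlapped and it was not called (adjusted p = 0.367). Without untreated replicates 1 and 2, Tyrp1 and Dct stayed below the threshold in limma (adjusted p = 0.000142 and 0.0199), and Mitf and Trpm1 did not (0.0843 and 0.145). Their log2 fold changes there were 5.37 ± 0.64 for Tyrp1, 3.01 ± 0.56 for Dct, 3.34 ± 0.74 for Mitf and 3.60 ± 0.87 for Trpm1, against 5.10, 2.45, 3.06 and 3.04 with all libraries.

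The same near-absence in untreated cells was seen for regulators of transcription outside the pigment lineage. Maf, a leucine zipper transcription factor, had 82.6, 50.6 and 31.3 normalized counts in exosome libraries and 5.40, 2.43 and 0 in untreated libraries, a log2 fold change of 4.21 ± 0.62 (limma adjusted p = 0.00061). Every exosome library was above every untreated one. Lbh, a transcription cofactor, had 20.9, 25.7 and 16.1 normalized counts against 0.900, 0 and 0. Ets1, a transcription factor of lymphocytes and other cells, had 15.7, 21.1 and 22.4 against 0, 0 and 1.78. Neither overlapped between groups. Peg10, an imprinted gene derived from a retrotransposon, had 8.36, 27.6 and 8.95 normalized counts and was at 0 in untreated libraries, at least 17.6-fold higher.

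Genes of membranes, the secretory pathway and signalling were also among the transcripts of this kind. Ryk, a Wnt receptor, had 20.9, 67.1 and 54.6 normalized counts in exosome libraries and 2.70, 1.62 and 0 in untreated libraries, a log2 fold change of 4.35 ± 0.60 (limma adjusted p = 0.000294). Syt4, a synaptotagmin of vesicle membranes, had 11.5, 18.4 and 12.5 normalized counts and was at 0 in every untreated library, at least 16.5-fold higher. Gpr137b, a lysosomal membrane protein, was likewise at 0 in untreated libraries and at 7.32, 16.5 and 22.4 in exosome libraries. The exosome libraries were above the untreated ones for all 3 genes, with replicate 1 the lowest of the exosome libraries each time.

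Fkbp9, a peptidyl-prolyl isomerase of the endoplasmic reticulum, had 15.7, 27.6 and 17.0 normalized counts in exosome libraries and 0.900, 0 and 0 in untreated libraries. Rnf144a, a ubiquitin ligase, had 5.23, 29.4 and 30.4 against 0.900, 0 and 0. Cerk, ceramide kinase, had 12.5, 39.5 and 29.5 against 4.50, 0 and 0. In each of these genes exosome replicate 1 was the lowest treated library and still above all untreated libraries. Wtip, a LIM domain protein, was at 7.32, 23.0 and 15.2 normalized counts in exosome libraries and at 0 in untreated ones.

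Of the 36 genes of this low group, 21 averaged below 1 normalized count in untreated cells and 11 had 0 reads there. The median exosome level was 16.3 normalized counts. For 30 of the 36 the filter on low values was passed only through exosome libraries, so their number and direction follow in part from the filter. All 36 lay above untreated replicate 3 in every exosome library, but they were called on these same libraries, so this is no independent support. Without untreated replicates 1 and 2 the log2 fold change was larger for 30 and smaller for 6 of the 36. Untreated replicate 3 had 36.4% of genes in the table at 0, against 30.1% and 30.9% in untreated replicates 1 and 2. Whether this enlarged the changes was not tested. With 1 library left out at a time, between 23 (without untreated replicate 2) and 36 (without untreated replicate 3) were still called. DESeq2 gave no adjusted p for any of the 36, so it holds no result on their calls in either direction. A list of 22 transcripts raised over all times in this series, chosen on these samples and so no independent evidence of direction, had 17 members called higher at 8 h and 0 lower, and 17 of the 22 had passed the filter only through exosome libraries.

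**Figure D2:**
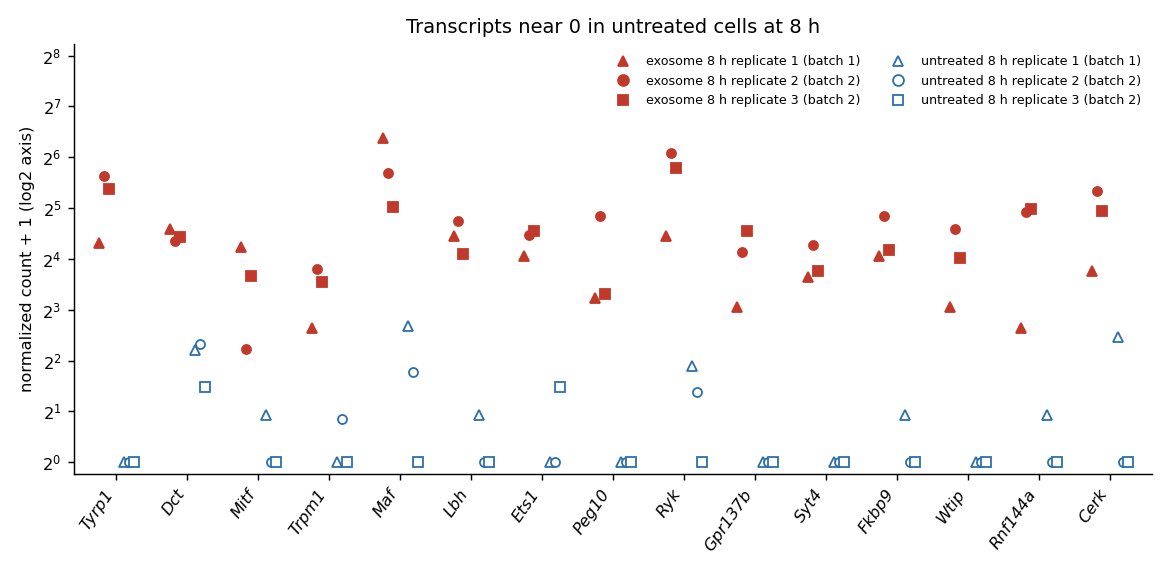
Normalized count + 1 (log2 axis) of 15 called transcripts in each 8 h library, exosome filled and left, untreated open and right, with a triangle for batch 1 and circles and squares for batch 2. Every exosome point lies above every untreated point of the same gene, and Tyrp1, Peg10, Gpr137b, Syt4 and Wtip are at 0 in all untreated libraries.

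Among genes that untreated cells expressed, Nfkb2, a member of the NF-kB list, was called higher, and so were Traf3 and Hivep1, which are not on it. Nfkb2, the precursor of the p52 subunit, had 1148, 1961 and 1841 normalized counts in exosome-treated cells and 959, 1059 and 1156 in untreated cells. Exosome replicates 2 and 3 were above all untreated libraries and replicate 1 lay just below untreated replicate 3. The log2 fold change was 0.61 ± 0.12 (limma adjusted p = 0.0133). Traf3, an adaptor that restrains the alternative NF-kB pathway, had 929, 1203 and 1149 normalized counts against 687, 803 and 921, a log2 fold change of 0.45 ± 0.08 (adjusted p = 0.0098). Its groups did not overlap, but exosome replicate 1 was close to untreated replicate 3. Hivep1, a zinc finger protein that binds kB-like DNA sites, had 629, 667 and 603 against 310, 311 and 497, with all exosome libraries above all untreated ones and a log2 fold change of 0.80 ± 0.14 (adjusted p = 0.00521).

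Nfkbia and Relb differed between batches. Nfkbia, which encodes the inhibitor IkB alpha, had 304, 876 and 911 normalized counts in exosome replicates 1, 2 and 3 and 397, 440 and 417 in untreated replicates 1, 2 and 3. Relb, a Rel family subunit that pairs with p52, had 185, 571 and 589 against 242, 217 and 221. In both genes the batch 2 exosome libraries were far above every untreated library and the batch 1 exosome library was below all of them. Neither was called over both batches (limma adjusted p = 0.117 for Nfkbia and 0.0956 for Relb).

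Within batch 2, with 2 libraries a group, limma called 0.324% of all genes, and Nfkbia rose by a log2 fold change of 1.06 ± 0.08 (limma adjusted p = 4.451e-06) and Relb by 1.40 ± 0.13 (adjusted p = 2.497e-05). Within batch 1, with 1 library a group whose spread was taken to equal that of the others, the log2 fold changes were -0.38 ± 0.12 for Nfkbia and -0.39 ± 0.19 for Relb. No call is taken from batch 1, where 28.9% of all genes passed the threshold and the untreated library carries the muscle transcripts and the length skew. The difference, batch 1 minus batch 2, was -1.44 ± 0.15 for Nfkbia (adjusted p = 0.000316) and -1.79 ± 0.23 for Relb (adjusted p = 0.00455). These were 2 of the 14 genes (0.0944% of those tested) whose effect differed between batches, 5 higher (0.0337%) and 9 lower (0.0607%) in batch 1. This test rests on the same pair of batch 1 libraries, and what belongs to the batch and what to these libraries cannot be told apart.

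Of 27 NF-kB target and pathway genes listed, 23 were tested, and Nfkb2 was the single one called over both batches. In batch 2 alone 6 of the 23 were called higher and 0 lower, where 0.324% of all genes were called. The median log2 fold change of the list was 0.19 in batch 2, against -0.00332 over all genes. In batch 1 it was -0.14, against 0.011 over all genes. Besides Nfkbia, Relb and Nfkb2 the 6 called in batch 2 were Tnfaip3, Tnip1 and Bcl3, named here after their values were seen. Tnfaip3, the A20 deubiquitinase that dampens the pathway, had 78.4, 53.3 and 43.0 normalized counts in exosome libraries and 49.5, 14.6 and 22.3 in untreated libraries. Bcl3, a nuclear IkB family protein, had 413, 506 and 537 against 364, 285 and 345. In batch 2, 19 of the 23 log2 fold changes were above 0, and that of Nfkb1 was below. Nfkb1 had 5812, 6224 and 6161 against 6416, 6569 and 6719, with all exosome libraries below all untreated ones. It was not called (log2 fold change -0.12 ± 0.05, limma adjusted p = 0.147). Of the 23, the effect differed between batches for Nfkbia and Relb, and it did not pass the threshold for the other 21.

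Promoter windows are shown for Nfkb2 and Nfkbia, called higher in batch 2, and for Traf3, called over both batches. Windows run from 250 bases before to 50 after the transcript start (RefSeq, GRCm38.p6), on the gene's own strand, with matches to the NF-kB consensus, a motif of 10 letters searched on both strands, in capitals. Nfkb2 has 3 windows, of which the first is printed, at chr19:46304487-46304786 on the plus strand. Nfkbia is at chr12:55492598-55492897 on the minus strand and Traf3 at chr12:111166120-111166419 on the plus strand.
Nfkb2: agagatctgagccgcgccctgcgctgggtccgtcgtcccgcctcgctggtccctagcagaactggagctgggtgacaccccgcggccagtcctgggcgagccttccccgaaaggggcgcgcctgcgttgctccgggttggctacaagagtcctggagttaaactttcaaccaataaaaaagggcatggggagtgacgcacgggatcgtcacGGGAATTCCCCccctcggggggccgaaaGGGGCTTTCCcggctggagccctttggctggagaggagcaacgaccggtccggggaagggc
Nfkbia: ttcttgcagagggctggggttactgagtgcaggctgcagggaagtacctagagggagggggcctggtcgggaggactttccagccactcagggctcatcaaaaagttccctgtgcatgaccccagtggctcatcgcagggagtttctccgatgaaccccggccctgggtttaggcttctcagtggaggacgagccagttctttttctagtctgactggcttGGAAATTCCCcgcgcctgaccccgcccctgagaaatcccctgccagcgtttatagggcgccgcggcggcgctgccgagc
Traf3: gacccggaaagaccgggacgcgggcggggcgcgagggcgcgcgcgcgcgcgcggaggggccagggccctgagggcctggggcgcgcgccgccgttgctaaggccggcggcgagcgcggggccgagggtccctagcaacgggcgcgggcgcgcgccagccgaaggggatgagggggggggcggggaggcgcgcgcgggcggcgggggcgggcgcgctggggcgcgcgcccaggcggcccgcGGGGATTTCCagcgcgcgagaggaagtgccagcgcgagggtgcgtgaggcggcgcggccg
The printed Nfkb2 window held 2 separate matches, the first of them 2 overlapping matches 1 base apart, and the Nfkbia and Traf3 windows held 1 each. The other 2 Nfkb2 windows held 2 and 1. Of the other NF-kB members called higher in batch 2, Bcl3 and Tnip1 had 1 separate match in their window and Tnfaip3 had 0 and 2 in its 2 windows. No window was available for Relb, so it was not searched. The Hivep1 window held 1 match, and those of Wsb2, Bid, Chchd4, Furin and Cmtm4 held none of these letters. A match was found in 8.46% of all 32851 windows and 2 or more separate matches in 0.521%. These matches describe the letters in the windows only.

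**Figure D3:**
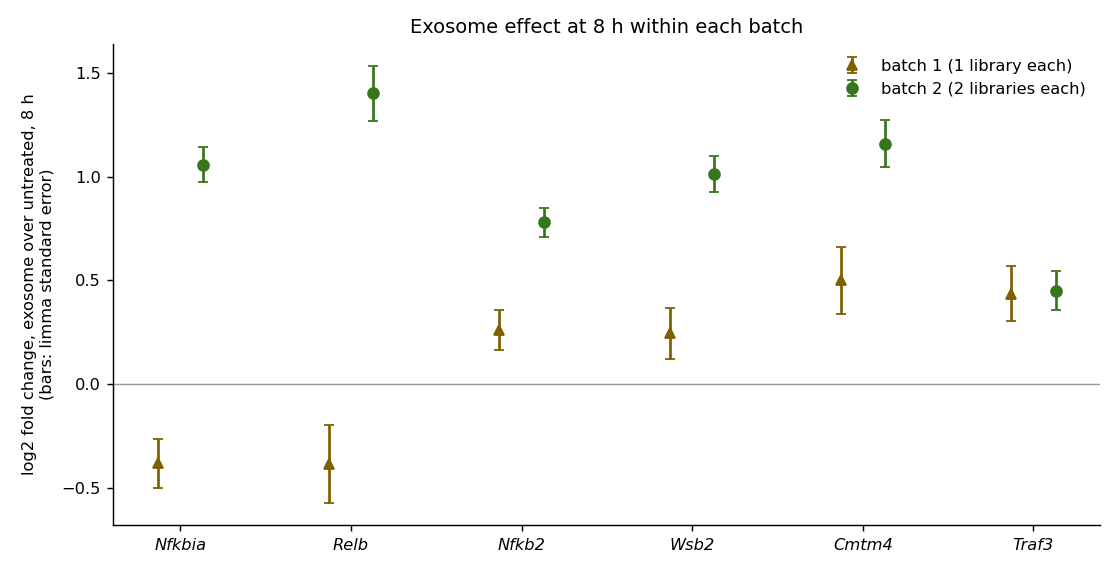
Log2 fold change of exosome over untreated cells at 8 h within batch 1 (triangles, 1 library a group) and batch 2 (circles, 2 libraries a group), with limma standard errors as bars. Nfkbia and Relb lie below 0 in batch 1, at -0.38 and -0.39, and at 1.06 and 1.40 in batch 2, while Traf3 is at 0.44 and 0.45.

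Wsb2, a SOCS-box adaptor of ubiquitin ligases, had 1198, 2090 and 1896 normalized counts in exosome-treated cells and 1012, 1006 and 965 in untreated cells. All exosome libraries were above all untreated libraries, and the 3 untreated libraries lay close together. The log2 fold change was 0.76 ± 0.16 (limma adjusted p = 0.0341), at 1.01 ± 0.09 within batch 2 and 0.24 ± 0.12 within batch 1. Cmtm4, a membrane protein of the chemokine-like factor family, had 419, 953 and 808 normalized counts in exosome libraries and 296, 373 and 413 in untreated libraries. Its groups did not overlap, but exosome replicate 1 was close to untreated replicate 3. Cmtm4 was not called over both batches (log2 fold change 0.94 ± 0.24, limma adjusted p = 0.0691), while within batch 2 it rose by 1.16 ± 0.11 (adjusted p = 3.558e-05).

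Further expressed genes were called higher. Kdm2b, a histone demethylase, averaged 328 ± 62.2 normalized counts in exosome libraries and 227 ± 33.5 in untreated libraries (SD, n = 3 each), and its groups overlapped. Furin, the proprotein convertase, averaged 4314 ± 154 against 3311 ± 312, and Fbrs averaged 1909 ± 166 against 1370 ± 178, both without overlap. Rere, a transcriptional corepressor, had 333, 237 and 194 normalized counts in exosome libraries and 135, 112 and 190 in untreated libraries. Piezo1, the mechanosensitive channel, had 619, 396 and 389 against 312, 276 and 351. Amotl1, an angiomotin family protein, had 700, 788 and 666 against 426, 511 and 630. In these 3 genes untreated replicate 3 was the untreated library nearest to the exosome libraries. Untreated Rere means were 282, 220 and 249 at 0.5, 2 and 4 h and 146 at 8 h. The exosome mean at 8 h was 255. For Piezo1 they were 524, 504, 448 and 313, against 468. Both genes thus had their lowest untreated mean at 8 h, and their exosome mean at 8 h lay among the earlier untreated means. For Kdm2b, at 319, 235, 259 and 227, the exosome mean at 8 h was above all of these.

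Across the 18 expressed genes called higher, the median transcript length was 7078 bases, against 2633 over the genes tested. Exosome libraries were all above untreated replicate 3 in 13 of the 18. Without untreated replicates 1 and 2, 0 of the 18 were called, and the log2 fold change was smaller for 17 and larger for 1, with a median of 0.31 against 0.54 with all libraries. Wsb2 was the larger one, at 0.95 ± 0.22 (adjusted p = 0.115), and Nfkb2 was at 0.58 ± 0.17 (adjusted p = 0.381), while Hivep1, Rere and Zfhx3 were at 0.34, 0.31 and 0.20, against 0.80, 0.80 and 0.85 with all libraries. With all 8 muscle-positive libraries left out, Wsb2 was called at 0.89 (adjusted p = 0.047). Of the 18, 5 were called after each library was corrected for transcript length and GC content. With genes averaging below 10 normalized counts in untreated cells left out of the test, limma called 0 of 13393 genes, with 3743 at an unadjusted p below 0.05. Without untreated replicates 1 and 2, only untreated replicate 3 remains at 8 h, and the standard error of Nfkb2 was 0.17, against 0.12 with all libraries. Calls lost there can therefore also reflect lower power. The part of the library differences in these calls was not tested.

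The log2 fold changes of the 9 genes called lower ran from -0.91 to -0.26. Bid, a BH3-only protein of the BCL-2 family that links death receptors to mitochondria, had 1398, 1627 and 1662 normalized counts in exosome-treated cells and 1814, 2006 and 1785 in untreated cells. The groups did not overlap, and the log2 fold change was -0.26 ± 0.06 (limma adjusted p = 0.0427). Chchd4, the import receptor of the mitochondrial intermembrane space, had 684, 962 and 1046 against 1027, 1332 and 1095, a log2 fold change of -0.37 ± 0.08 (adjusted p = 0.0451). Exosome replicate 3 lay above untreated replicate 1, so the groups overlapped, although within batches the exosome libraries were lower.

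Mitd1, a protein of cytokinesis, had 245, 279 and 301 normalized counts in exosome libraries and 387, 378 and 335 in untreated libraries. Drc1, a component of ciliary dynein regulation, had 220, 224 and 197 against 292, 294 and 260. Fam241a had 18.8, 37.7 and 35.8 against 48.6, 69.6 and 47.3. All 3 were without overlap between groups. The remaining 4 were processed pseudogenes, among them Rpsa-ps2 with 151, 149 and 135 against 355, 234 and 181, whose reads may be shared with the parent genes. The 9 genes had a median transcript length of 1470 bases. Exosome libraries were all below untreated replicate 3 in 8 of the 9, and 0 of the 9 were called without untreated replicates 1 and 2 or within batch 2. Without these 2 libraries their median log2 fold change was -0.31, against -0.53 with all libraries, and Bid was at -0.17 and Chchd4 at -0.20.

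Genes of mitochondria and ribosomes had mostly negative log2 fold changes, of which 1 passed the test. Of 31 mitochondrial import genes 1 was called lower (Chchd4) and 30 had negative log2 fold changes, with a median of -0.29. Of 75 oxidative phosphorylation genes, 75 mitochondrial ribosome genes and 73 cytosolic ribosomal protein genes, limma and edgeR called 0, while 52, 38 and 48 had lower values at an unadjusted p below 0.05, where 13.1% of all genes did and 0.0607% were called lower. The medians were -0.32, -0.24 and -0.33. Ndufv2, a complex I subunit, had 889, 1141 and 1210 normalized counts in exosome libraries and 1650, 1641 and 1323 in untreated libraries, without overlap (adjusted p = 0.0708). Rps3, a small subunit ribosomal protein, had 13896, 14027 and 14303 against 33979, 24778 and 14766 (adjusted p = 0.0772). Untreated replicate 3 was next to the exosome libraries in Rps3 and replicates 1 and 2 were far above.

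Without untreated replicate 3, limma called 47 of the 75 oxidative phosphorylation genes, 39 of the 75 mitochondrial ribosome genes and 43 of the 73 cytosolic ribosomal protein genes lower, where 12.8% of all genes were called lower. Without untreated replicates 1 and 2 it called 0 in each list and the medians were -0.12, -0.10 and -0.11. Genes of the shortest quintile by transcript length had a median log2 fold change of -0.21 and those of the longest quintile 0.20, and without untreated replicates 1 and 2 these were -0.07 and 0.00132. The part of transcript length and of the muscle transcripts in these lists was not tested.

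In the lists of T cell function no gene passed the test at 8 h. Limma called 0 of 19 T cell identity genes, 0 of 17 cytotoxic effectors, 0 of 22 interleukin-2 and STAT5 targets and 0 of 13 interleukin-12 and interleukin-18 signalling genes, as did edgeR. With 0.452% of all genes called, 0 in lists of this size is near the background and is no result about them. At an unadjusted p below 0.05, 1 T cell identity gene was higher and 9 lower, and 0 cytotoxic effectors were higher and 9 lower, beside 13.6% higher and 13.1% lower over all genes. The interleukin-2 and STAT5 targets had 3 higher and 3 lower at that level, and the interleukin-12 and interleukin-18 genes 2 higher and 1 lower. Cytotoxic effectors summed to 518630, 361140 and 367590 normalized counts in exosome libraries and to 903400, 452900 and 367640 in untreated libraries. Untreated replicates 2 and 3 lay within the range of the exosome libraries, and the batch 1 library was the highest in each group. Their median log2 fold change was -0.51 in batch 1 and -0.08 in batch 2, and that of T cell identity genes -0.20 and -0.10. Of the markers of other cell types, limma and edgeR called 0 of 3 macrophage and dendritic, 0 of 4 B cell, 0 of 9 fibroblast, 0 of 3 epithelial and 0 of 2 erythroid and platelet genes tested. At an unadjusted p below 0.05, 1 macrophage marker was lower, and 2 fibroblast markers were higher and 1 lower. Gzmb, granzyme B, had 36265, 33892 and 33083 normalized counts in exosome-treated cells and 47351, 35780 and 34861 in untreated cells (log2 fold change -0.18 ± 0.09, adjusted p = 0.222). Prf1, perforin, had 35276, 17222 and 16059 against 34918, 14211 and 15706, where the batches differed more than the groups. Ifng, interferon gamma, had 55.4, 57.9 and 59.1 against 82.8, 56.6 and 50.0.

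Il2ra, the high-affinity interleukin-2 receptor chain, had 15309, 20261 and 19775 normalized counts in exosome libraries and 12531, 16461 and 19496 in untreated libraries (adjusted p = 0.206). Myc had 1426, 2784 and 2904 against 1293, 2548 and 2865. Ptpn11, the phosphatase SHP2, had 2851, 4292 and 3978 against 2459, 3700 and 4189. All 3 overlapped between groups, with the batch 1 libraries lowest in each group. Il12rb2, a chain of the interleukin-12 receptor, had 2717, 3356 and 3058 against 1622, 2312 and 3112 (log2 fold change 0.42 ± 0.13, adjusted p = 0.0789). Against untreated replicate 3 alone its log2 fold change was 0.00565 ± 0.13.

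**Figure D4:**
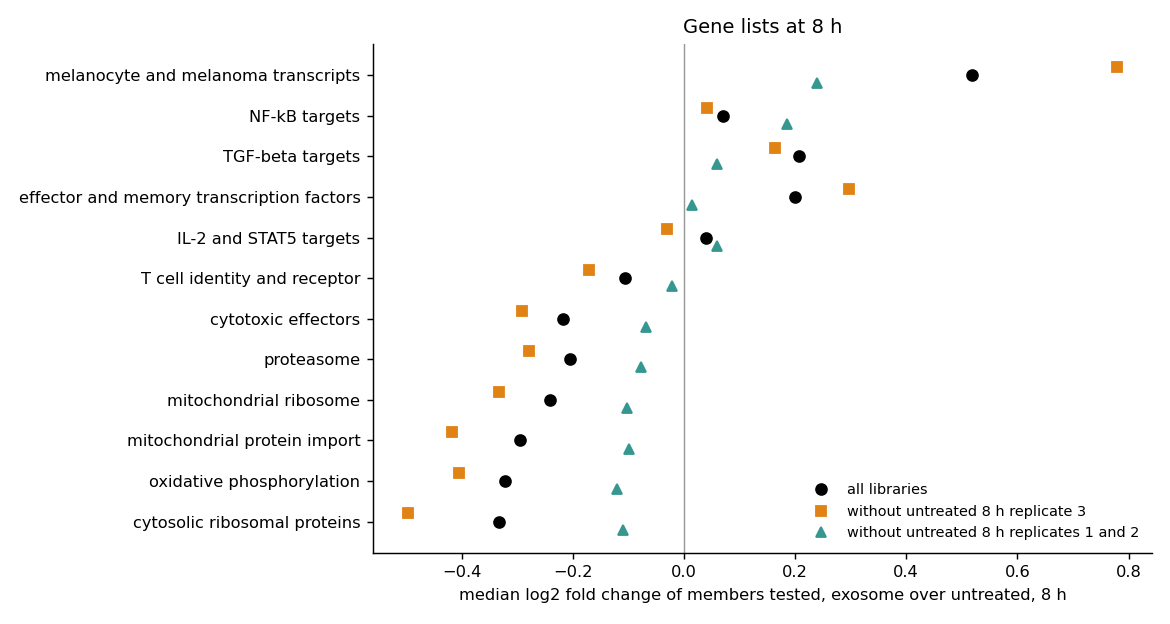
Median log2 fold change of the members tested in 12 gene lists, exosome over untreated cells at 8 h, from all libraries (circles), without untreated replicate 3 (squares) and without untreated replicates 1 and 2 (triangles). The oxidative phosphorylation median is -0.32 with all libraries and -0.12 without untreated replicates 1 and 2.

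The effect at 8 h was then set against the mean effect at 0.5, 2 and 4 h in the same fit. Limma called 0 genes as different, with 4106 at an unadjusted p below 0.05, and edgeR called 3. Tyrp1 averaged 51.7, 36.1, 28.9 and 35.9 normalized counts in exosome-treated cells at 0.5, 2, 4 and 8 h and was at 0 in untreated cells at each time. Its effect at 8 h minus the mean of the earlier ones was 0.03 ± 0.52 (log2). Wsb2 averaged 2162, 1785, 1714 and 1728 in exosome-treated cells at the 4 times, against 945, 1013, 937 and 994 in untreated cells, a difference in effect of -0.16 ± 0.19. Both genes were thus already above untreated cells at 0.5 h.

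Nfkbia, Relb and Nfkb2 had higher exosome means at 4 and 8 h than at 0.5 and 2 h, a contrast that was not tested by itself. Nfkbia averaged 347, 497, 776 and 697 normalized counts in exosome-treated cells at 0.5, 2, 4 and 8 h, against 333, 380, 417 and 418 in untreated cells. Relb averaged 225, 231, 472 and 448 against 188, 212, 208 and 227, and Nfkb2 averaged 1076, 1099, 1602 and 1650 against 987, 1027, 1075 and 1058. The difference in effect between 8 h and the earlier mean was 0.35 ± 0.14 for Nfkb2 (limma adjusted p = 0.107), 0.19 ± 0.27 for Nfkbia (0.68) and 0.36 ± 0.33 for Relb (0.497), none past the threshold. Without untreated 8 h replicate 3 the count of genes differing between 8 h and earlier was 3950, and without untreated 8 h replicates 1 and 2 it was 1. Of the 8 libraries with muscle transcripts, 5 were exosome libraries at earlier times.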

How the data were processed

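The study sequenced 28 CTLL2 libraries in 9 groups, of which 6 are compared here. Upstream software, per the submitters' processing notes, comprised STAR 2.4.2, featureCounts 1.5.0, CASAVA 1.8.4, R 3.3.2 and DESeq2, with GRCm38.p2 as the build. How strand and multiply mapping reads were treated is not given in the sources used here, so near-identical and overlapping genes are uncertain. The deposited values are a normalized signal: the authors scaled each library's read counts by a single size factor. All values (100%) came out as whole reads, within 0.01 read, once divided by the library's step, with totals from 6072984 to 24085812. Symbols and positions follow GENCODE M21 (GRCm38), for 30608 genes in the table.

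The main test was limma 3.58.1 (R 4.3.3) with a mean-variance trend, fitted to log2(normalized count + 1), a scale that understates changes near 0. It kept the 14828 genes reaching 10 normalized counts in 3 or more libraries. All 28 libraries entered, with a mean for each group and a term for batch, leaving 18 residual degrees of freedom. Genes were called at a Benjamini-Hochberg adjusted p below 0.05, with every tested gene in the adjustment. A second fit had a mean for each group and batch. On recovered reads, edgeR 4.0.16 (quasi-likelihood) and DESeq2 1.42.0 served as alternatives, beside other scalings, filters, pseudocounts and left-out libraries. Leaving out muscle-positive libraries and the loess correction for transcript length and GC content were chosen after seeing the data. The code was tested on simulated data.

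Deviations of libraries with the same replicate number correlated at 0.69, 0.39 and 0.22 over genes for numbers 1, 2 and 3, and at 0.45 and 0.47 where numbers 2 and 3 were crossed. Number 1 is also batch 1 in both groups. The crossed values exceeded those of numbers 2 and 3 with themselves, and replicate 2 minus replicate 3 correlated at -0.20 between groups, so these correlations separate the batches and do not show that numbers 2 and 3 pair samples, which the labels do not state either.

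The members and the 45 gene lists were chosen with earlier results of these data known. Genes named were the 12 called with the largest rise and all called lower, alike in both batches and without predicted genes, up to 10 in each direction called at an untreated mean of 50 or more, up to 4 called members of each list or the 2 with the smallest p, up to 4 differing between batches, and 14 genes whatever their values. By limma 39 of the 45 lists had 0 called members. Lists with neither a result nor a called member given above had 0 by edgeR as well. Over all lists with 0 called members, between 0 and 52 genes (oxidative phosphorylation) were at an unadjusted p below 0.05.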

Additional observations from a re-analysis of the deposited data

How the results depend on the processing

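The count of 67 genes at 8 h stayed within 1.5 times in 9 alternatives. The genes shared with the 67 were 65 of 66 genes with pseudocount 0.5, 61 of 63 with pseudocount 5, 53 of 86 without a filter, 60 of 60 with TMM, 64 of 65 with upper-quartile scaling, 67 of 67 with robust limma, 51 of 56 without the trend, 33 of 53 with batch 2 alone (0 of the 9 lower) and 57 of 65 with edgeR. A filter of 50 gave 10 genes, and leaving out genes low in untreated cells gave 0 (3743 at an unadjusted p below 0.05). The 8 h libraries alone gave 1 gene with a batch term (2606 at that level) and 0 with the replicate block (1912). A fit with no batch term gave 29, and the length and GC correction 44. DESeq2 gave 953 (412 higher, 541 lower), with no adjusted p for 42 of the 67 genes. Leaving out 1 library gave between 25 and 3903 genes, the lowest without untreated replicate 2 and the highest without untreated replicate 3, which kept all 67. Leaving out both muscle-positive untreated libraries gave 23, and all 8 muscle-positive libraries 20. In the comparison with earlier times (0 genes), edgeR gave 3, leaving out both muscle-positive untreated libraries 1, and leaving out 1 library between 0 and 3950. Batch 2, batch 1 and their difference gave 48, 4290 and 14 genes, and 55, 3526 and 11 without the trend. Between batches Nfkbia changed sign, at -0.38 in batch 1 and 1.06 in batch 2. The cause was not tested. With 3 libraries a group, transcripts under 3 reads cannot be told from absent.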
